A study of Rattus norvegicus with 12 samples.

Results

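Respiratory chain genes were taken from the deposited expression tables by name: the Nduf, Sdh, Uqcr, Cox4 to Cox8 and Atp5 families of the nucleus, and the Mt-nd, Mt-co, Mt-cyb and Mt-atp genes of the mitochondrial genome. The rule found 101 genes in either table and 99 in both. Each table held 100 of them, 88 nuclear and 12 mitochondrially encoded, of 18616 genes in one table and 19355 in the other. Mt-cytb, the rat name of the cytochrome b gene, did not match the rule and was not counted as a member. The name rule also takes in complex I assembly factors (Ndufaf genes) and a few pseudogene copies.

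The 12 libraries came from wild-type rat bone marrow cells labelled as mesenchymal stem cells (BMSCs) and kept in DMEM-LG with chondrogenic induction medium, in 4 groups of 3. BMSC-C cells were the untreated control. BMSC-CT cells received CTGF (connective tissue growth factor) during 1 week and TGF-β1 (transforming growth factor beta 1) after it, 2 signals used to turn such cells fibrotic. BF-C cells were labelled fibrotic BMSCs with no drug, and the study calls them induced fibrotic chondrocytes, and BF-D cells were the same kind of cell given docetaxel, which stabilizes microtubules. Not stated in the labels are the making of the BF cells, the dose or time of docetaxel, or whether the 3 replicates of a group were separate cultures or animals, so p-values measure the spread between these libraries only. Age, sex and strain of the animals are not given in the sources used here. The comparisons made were BMSC-CT against BMSC-C and BF-D against BF-C.

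The respiratory chain passes electrons from NADH (complex I) and succinate (complex II) through complexes III and IV to oxygen, and the proton gradient it builds drives ATP synthase (complex V). The mitochondrial genome encodes a few hydrophobic core subunits, made as long polycistronic transcripts, while the nucleus encodes the remaining subunits and all assembly factors. Some subunits of complex IV exist as paralogs that replace each other by tissue or oxygen supply. Stem cells of the marrow live at low oxygen and rely largely on glycolysis, and differentiation changes how much they respire.

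Values are normalized counts, that is whole reads per gene divided by a size factor for each library. The libraries held 15580310 to 19870047 reads, and 1 read was worth 0.813 to 1.61 normalized counts. In each table a log2 fold change is a difference of means of log2(normalized count + 1), tested with limma over all genes and called at an adjusted p under 0.05 (Benjamini-Hochberg). One library in each treated group stood apart by gene length. In BMSC-CT replicate 3 the deviation from the other replicates ran against length (Spearman rho -0.40 across genes, which are not independent replicates). In the other 5 BMSC libraries this rho ran from -0.18 (BMSC-C replicate 3) to 0.38 (BMSC-CT replicate 1). In BMSC-CT replicate 3, 14621 genes had reads, while each of the other 5 BMSC libraries had at least 16100. In BF-D replicate 2 the same rho was -0.36, against -0.04 to 0.27 in the other BF libraries. Results are therefore also given without these libraries. Of the labelled cell type, the 9 mesenchymal markers together took 0.414% to 0.443% of reads in BMSC-C and 5.17% to 5.26% in BF-C, while 12 macrophage markers took 0.854% to 1.02% in BMSC-C and the 11 of them that the BF table holds took 0.00407% to 0.00437% in BF-C. Col2a1, the cartilage collagen, had 9 reads in the whole BF-C group and 14 in BF-D, so this defining chondrocyte transcript was close to absent. Sox9, the chondrocyte transcription factor, had 170 and 135 reads in these groups, and Acan, the cartilage proteoglycan, 11 in BMSC-C and 1 in BMSC-CT. In these bulk samples, fewer cells of a type and less RNA per cell cannot be told apart.

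The largest called changes among the 88 nuclear members tested were in 3 genes that each have a more common paralog. Cox4i2 and Ndufa4l2 fell nearly to zero in BMSC-CT, and Cox6a2 rose. Cox4i2 (ENSRNOG00000007827, chromosome 3) encodes the low-oxygen form of subunit 4 of complex IV. Its normalized count was 361, 383 and 402 in BMSC-C and 1.81, 2.11 and 0 in BMSC-CT. The groups did not overlap, and the treated libraries held 2, 2 and 0 reads. The fitted log2 fold change was -7.54 (SE 0.53, n = 3 per group, limma adjusted p = 0.0007375). Because the treated counts are near zero, this size depends on the pseudocount, and across the alternatives it lay between -8.01 and -5.96, with an adjusted p of at most 0.0128.

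Ndufa4l2 (ENSRNOG00000031851, chromosome 7) is a hypoxia-induced paralog of Ndufa4. It had 353, 356 and 354 normalized counts in BMSC-C and 2.71, 2.11 and 6.44 in BMSC-CT. The control libraries were almost level, and every treated library was far below them, at 3, 2 and 4 reads. The log2 fold change was -6.33 (SE 0.44, limma adjusted p = 0.000679), between -6.83 and -5.39 over the alternatives, with the same limit of size near zero and an adjusted p of at most 0.0127.

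Cox6a2 (ENSRNOG00000019851, chromosome 1) encodes the heart and skeletal muscle form of subunit 6a of complex IV. It had 202, 184 and 182 normalized counts in BMSC-C and 1090.5, 1404 and 6213 in BMSC-CT. All treated libraries were above all controls, with replicate 3 far above the other treated ones. The log2 fold change was 3.48 (SE 0.64, limma adjusted p = 0.0155). Without BMSC-CT replicate 3 it was 2.70 (adjusted p = 0.000215), and with the length trend removed 2.98 (adjusted p = 0.00391). Leaving out any 1 control library ended the call, with adjusted p up to 0.0775. In those fits 1.5% to 2.76% of all genes were called higher, against 7.7% with all libraries.

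The common partners of these paralogs did not pass the limma test. In the authors' own test, whose tool is not stated, Cox4i1 and Cox6a1 were higher (adjusted p = 0.0281 and 0.0209) and Ndufa4 did not pass (0.0670). The values that follow are those of limma. Cox4i1, the general form of subunit 4, had 5790.0, 7706 and 9407 normalized counts in BMSC-C and 10229, 14396 and 53824 in BMSC-CT (log2 fold change 1.41, SE 0.62, limma adjusted p = 0.142). Cox6a1, the general form of subunit 6a, had 3133, 5908 and 6499 against 7961, 10609 and 38840.1 (1.59, SE 0.63, adjusted p = 0.116). Both sets of libraries were ordered without overlap, but replicate 3 made the spread of the treated group wide. Ndufa4, named for complex I, classed by name here and now known as a complex IV subunit, had 1331, 1133 and 1324 against 1330.1, 2087 and 6527, with overlap (1.06, SE 0.56, adjusted p = 0.203).

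Per length, the paralogs had been small parts of each pair. Cox4i2 made up 4.14%, 3.33% and 2.88% of the Cox4i2 plus Cox4i1 level in the BMSC-C libraries, and 0.0122%, 0.0102% and 0% in BMSC-CT. Ndufa4l2 made up 18.1%, 20.7% and 18.2% of its pair with Ndufa4 in BMSC-C and 0.169%, 0.0841% and 0.0821% in BMSC-CT. Cox6a2 went the other way, from 6.92%, 3.48% and 3.13% of its pair with Cox6a1 to 13.7%, 13.3% and 15.6%. These shares compare genes within a library, so that a difference in scaling between libraries does not enter them. In the 2 BF groups all 3 paralogs were scarce. In BF-C Cox4i2 was 0.0371%, 0.159% and 0.0803% of its pair, Cox6a2 0.296%, 0.390% and 0.356%, and Ndufa4l2 0.0486%, 0% and 0.422%. On the RPKM scale (reads scaled by gene length and by library depth), the level of Cox4i2 averaged 24.6 ± 0.938 in BMSC-C and 0.0743 ± 0.0645 in BMSC-CT (SD, n = 3 each). For the BF groups it averaged 0.247 ± 0.164 without docetaxel and 0.632 ± 0.479 with it. On that scale Cox6a2 stood at 27.1 ± 2.0, 261 ± 181, 1.66 ± 0.256 and 2.42 ± 0.869, and Ndufa4l2 at 25.5 ± 0.774, 0.185 ± 0.0581, 0.164 ± 0.239 and 0.0641 ± 0.0622, in BMSC-C, BMSC-CT, BF-C and BF-D. So BMSC-CT and the BF groups shared low Cox4i2 and Ndufa4l2, while Cox6a2 was high in BMSC-CT and not in the BF groups. The tables were normalized separately and these levels across them were not tested.

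**Figure D1:**
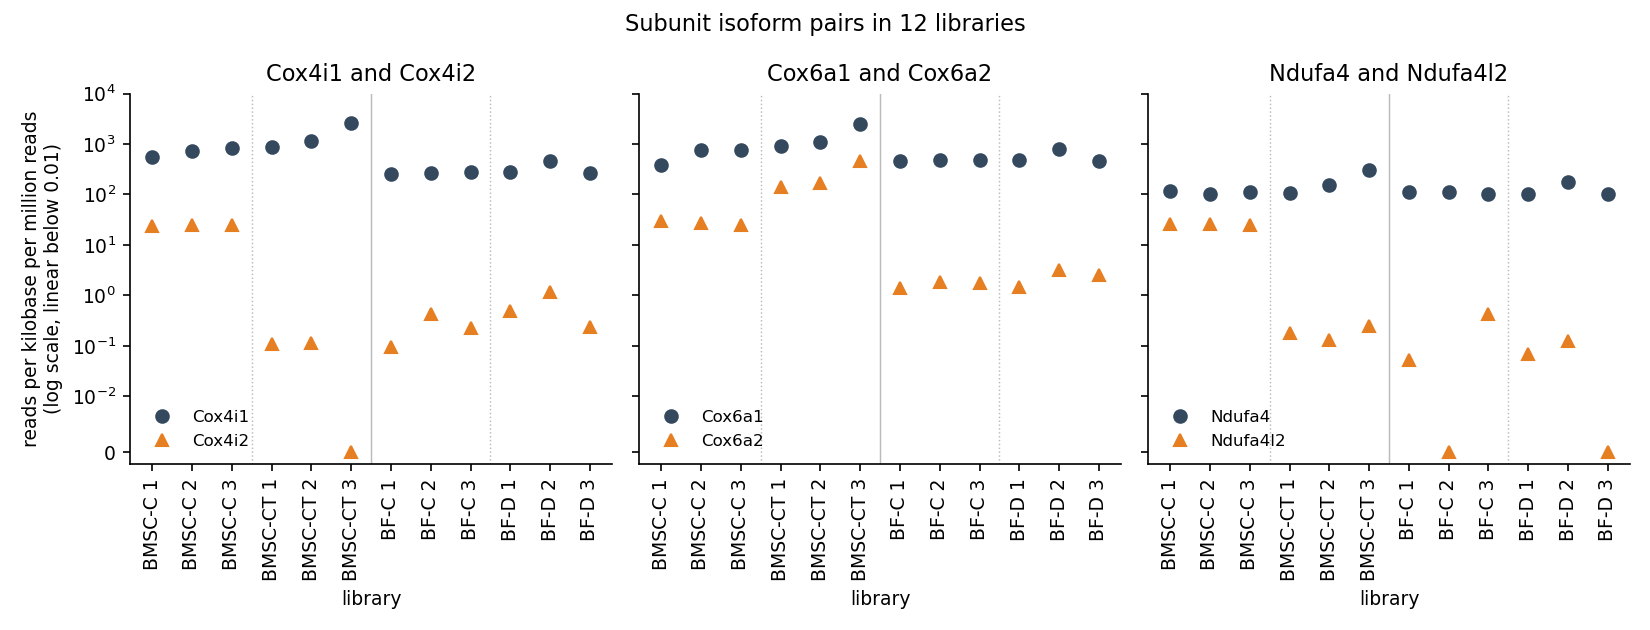
Levels of the isoform pairs Cox4i2 and Cox4i1, Cox6a2 and Cox6a1, and Ndufa4l2 and Ndufa4 in each of the 12 libraries (horizontal axis), in RPKM on a log axis that is linear below 0.01, with each point a library. Cox4i2 and Ndufa4l2 average 24.6 and 25.5 in BMSC-C and 0.0743 and 0.185 in BMSC-CT, while Cox6a2 averages 27.1 in BMSC-C and 261 in BMSC-CT.

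Upstream sequences are shown for the genes that limma called, with Cox4i1, the partner form that limma did not call, for comparison. Each is the 250 bases before the RefSeq gene start in GRCr8, 5′ to 3′ on the gene's own strand. Cox6a2 lies at chr1:192219717-192219966 (minus strand), Ndufa4l2 at chr7:65241919-65242168 (plus), Uqcrc2 at chr1:184598990-184599239 (plus) and Cox4i1 at chr19:65630133-65630382 (plus). Capitals mark matches, on either strand, to 6 motifs. Those searched as printed were the ETS core CCGGAA, the YY1 core AAGATGG, the E box CANNTG and the hypoxia response core, ACGTG or GCGTG. Letter patterns for the NRF-1 and MEF2 motifs, which allow several bases at some positions, were searched in the same way.
Cox6a2: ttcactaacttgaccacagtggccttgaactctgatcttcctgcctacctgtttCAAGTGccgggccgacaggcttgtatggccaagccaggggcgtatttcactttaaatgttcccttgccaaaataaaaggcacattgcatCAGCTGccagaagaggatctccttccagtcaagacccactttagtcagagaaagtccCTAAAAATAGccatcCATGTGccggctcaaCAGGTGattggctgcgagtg
Ndufa4l2: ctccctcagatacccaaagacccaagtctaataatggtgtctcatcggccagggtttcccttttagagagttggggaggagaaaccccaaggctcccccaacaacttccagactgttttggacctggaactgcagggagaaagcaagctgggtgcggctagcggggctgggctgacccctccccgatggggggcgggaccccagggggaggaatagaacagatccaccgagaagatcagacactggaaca
Uqcrc2: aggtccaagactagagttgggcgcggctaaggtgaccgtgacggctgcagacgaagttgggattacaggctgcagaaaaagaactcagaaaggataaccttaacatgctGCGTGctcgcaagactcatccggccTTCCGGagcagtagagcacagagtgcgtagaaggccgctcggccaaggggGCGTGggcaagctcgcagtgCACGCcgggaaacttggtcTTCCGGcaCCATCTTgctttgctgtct
Cox4i1: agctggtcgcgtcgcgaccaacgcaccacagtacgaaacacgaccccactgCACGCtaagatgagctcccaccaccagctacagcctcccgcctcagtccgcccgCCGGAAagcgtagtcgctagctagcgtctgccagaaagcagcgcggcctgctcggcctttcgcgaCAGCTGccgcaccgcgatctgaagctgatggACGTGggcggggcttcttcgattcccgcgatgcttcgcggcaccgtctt
Cox6a2 held 4 E boxes, at -196, -107, -35 and -20 from the start, and a MEF2 match at -50. It was the 1 of 73 member promoters with a MEF2 match (1.37%, against 3.07% of 27457 rat promoters). Ndufa4l2 matched none of the 6 motifs. Uqcrc2 held ETS cores at -116 and -27, a YY1 core at -19 and 3 hypoxia cores, and Cox4i1 an ETS core at -145, an E box at -80 and 2 hypoxia cores. Over the 73 of 84 nuclear symbols with a promoter in the table, ETS cores occurred in 39.7% (13.4% of all promoters), NRF-1 in 15.1% (4.17%), YY1 in 5.48% (4.63%), E boxes in 54.8% (65.2%) and the hypoxia core in 54.8% (37.9%). These counts describe letters in a window and were not tested. Cox4i2 was not matched.

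Of the 88 nuclear members tested, 1 rose (Cox6a2) and 3 fell (Cox4i2, Ndufa4l2, Uqcrc2) in BMSC-CT. Over all 16818 genes tested the shares called were 7.7% higher and 10.9% lower, so in limma the members' counts were not above the background. The count depends on the tool: of the same 88 members, DESeq2 on the recovered reads called 33 higher and 5 lower, where it called 16.5% and 16.4% of all genes. In the authors' deposited table, the counts of nuclear members were 32 higher and 5 lower at an adjusted p under 0.05, beside 14.5% of the 18616 genes with an adjusted p in each direction. Whether the members' share exceeded that of all genes was not tested under any of these. Most values were positive: 77 of 88 log2 fold changes, with a median of 0.92 against -0.15 for all genes, and 40 members had every treated library above every control (23.3% of all genes) while 7 had every one below (28.9%). The replicate spread was large, with the SD between replicates of the per-library nuclear median at 0.75 (log2). By class the median was 0.82 for complex I core subunits, 1.11 for accessory ones, 0.72 for assembly factors, 0.65 for complex II, 0.75 for III, 1.20 for IV and 0.93 for V.

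Uqcrc2 (ENSRNOG00000036742, chromosome 1), a core subunit of complex III, was the one nuclear member outside the paralog pairs that limma called. Its normalized count was 1205, 1090.5 and 969 in BMSC-C and 670.0, 572 and 369 in BMSC-CT. The groups did not overlap. The log2 fold change was -1.06 (SE 0.27, limma adjusted p = 0.0423). The call ended with total-read scaling, with edgeR and without any 1 control library or BMSC-CT replicate 2, with adjusted p up to 0.164. In the fits without 1 of those libraries 2.92% to 4.89% of all genes were called lower, against 10.9% with all libraries.

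Several other members differed without passing the limma test, to which calls and adjusted p refer here unless another is named. In the authors' own test Atp5e and Ndufv3 were higher and Ndufaf4 lower (adjusted p = 0.00775, 0.0165 and 0.00590). Atp5e, the epsilon subunit of ATP synthase, had 1097, 1703 and 2212 normalized counts in BMSC-C and 2881, 4009 and 20155 in BMSC-CT (log2 fold change 1.94, adjusted p = 0.105). Ndufv3, an accessory subunit of complex I, had 713, 787 and 790.3 against 1277, 1326 and 3812 (1.29, adjusted p = 0.0827). In these cases replicate 3 was the highest of the 6 libraries by far. Ndufaf4, a complex I assembly factor, lay the other way at 237, 249.6 and 155 against 109, 83.4 and 106 (-1.07, adjusted p = 0.0534).

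Among the core subunits of complex I, Ndufs7, which carries an iron-sulfur cluster next to the quinone site, had 524, 817 and 1036 normalized counts in BMSC-C and 1013, 1438 and 4535 in BMSC-CT (log2 fold change 1.30, adjusted p = 0.149). Ndufs1, the iron-sulfur subunit of the matrix arm, lay below the controls in every treated library, at 1024, 872 and 866 against 756, 725 and 506 (-0.49, adjusted p = 0.165). Ndufv1, which binds NADH, had 1489, 1657 and 1977 against 1960.3, 2386 and 4837.5 (0.74, adjusted p = 0.177). Values of core genes lay on both sides of the controls, with none of the 7 called by limma. The authors' own test had Ndufs7 higher (adjusted p = 0.0456). The assembly factors Ndufaf6 and Ndufaf7 were at 1.20 and 0.72 (limma adjusted p = 0.124 and 0.167), and the authors' own test had Ndufaf6 higher (adjusted p = 0.0369) but not Ndufaf7.

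In complex III the small subunit Uqcr10 had 160.2, 356 and 457 normalized counts in BMSC-C and 488, 739 and 2878 in BMSC-CT (log2 fold change 1.77, adjusted p = 0.123). Uqcrq, another small subunit, had 2179.6, 3024 and 3593 against 3596, 4756 and 21820.3 (1.33, adjusted p = 0.188). Neither overlapped between groups, and in both replicate 3 was several times the other treated libraries. In ATP synthase the c-ring gene Atp5g2 had 2406, 3118 and 3733 against 4769.6, 6539.7 and 20010.2 (1.49, adjusted p = 0.0938), and the stalk gene Atp5d stood at 1.40 (adjusted p = 0.125). The catalytic beta subunit Atp5b was at 12970.2, 15760.1 and 16768 against 14106, 15962 and 23812 (0.22, adjusted p = 0.565), with overlap. The authors' own test had Uqcr10, Uqcrq, Atp5g2 and Atp5d higher (adjusted p = 0.0215, 0.0423, 0.0147 and 0.0235) but not Atp5b.

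The remaining isoform genes of complex IV were not called by limma with all libraries. The authors' own test had Cox8a, Cox6b1 (ENSRNOG00000024309), Cox7a2 and its pseudogene higher (adjusted p = 0.0324, 0.0407, 0.0203 and 0.00547). It did not call Cox8b, Cox6b2 or Cox7a2l. Cox8a, the general form of subunit 8, had 2421, 2387 and 2802 normalized counts in BMSC-C and 3437, 4461 and 12838 in BMSC-CT (log2 fold change 1.20, adjusted p = 0.121), and without replicate 3 it was 0.63 (adjusted p = 0.0233). Cox8b, the muscle form of subunit 8, had no read outside BMSC-CT replicate 3, which held 6. Cox6b1, the general form of subunit 6b, had 1418, 1453 and 1740.0 against 1977, 2506 and 9438 (1.23, adjusted p = 0.161), and Cox6b2, its testis form, had 11.4, 8.46 and 12.1 against 4.52, 4.22 and 4.83 (-1.06, adjusted p = 0.110). Both Cox6b genes were separated between the groups, in opposite directions. Cox6b1 and Cox7a2 each have a second gene ID of the same symbol, and reads may be split between such copies. Cox7a2 (ENSRNOG00000042903) was at 1.60 (adjusted p = 0.132), its processed pseudogene at 1.96 (adjusted p = 0.0988), and Cox7a2l, which helps to join complexes III and IV, at 0.70 (adjusted p = 0.267). Cox7a1 was not analysed here.

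Of complex II, Sdha, the flavoprotein, had 1368, 1685 and 1685 against 1622, 1567 and 1176 (-0.13, adjusted p = 0.674), and Sdhb, the iron-sulfur subunit, and the membrane anchors Sdhc and Sdhd had log2 fold changes of 0.91, 0.53 and 0.77, with none called. Other values rested on 1 or 2 control libraries. Atp5f1 (ENSRNOG00000016000), a stalk subunit whose symbol 2 genes carry, had 7.32, 343 and 135 normalized counts in BMSC-C against 6.33, 9.50 and 16.1. The authors' own test had this Atp5f1 gene lower (adjusted p = 0.00201), while limma did not call it. Ndufa1 had 282, 4.23 and 6.07 against 5.43, 5.28 and 11.3.

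**Figure D2:**
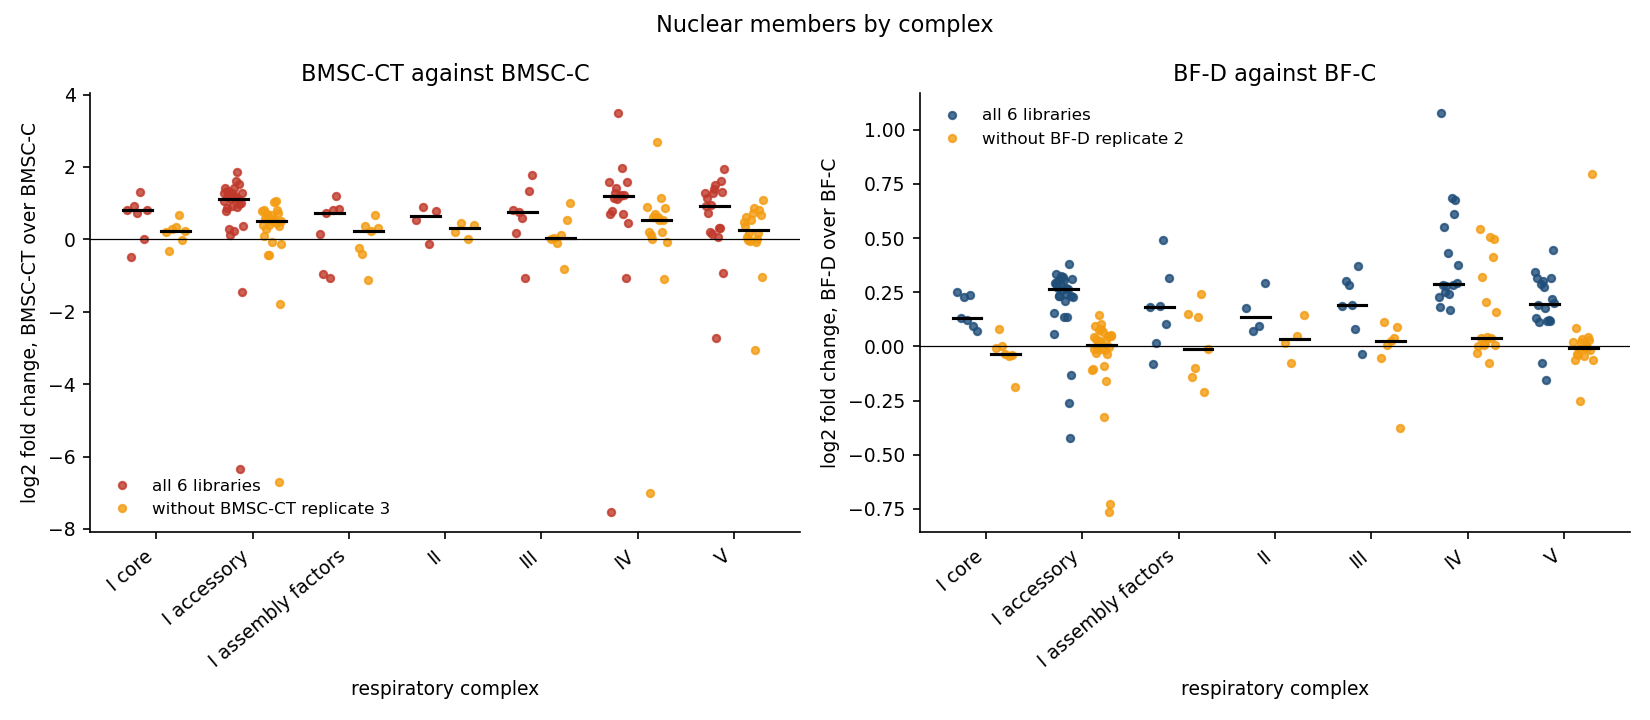
Log2 fold changes of the nuclear members by complex in both comparisons, each point a member and each line a class median, with all 6 libraries and, in orange, without BMSC-CT replicate 3 (left) or BF-D replicate 2 (right). On the left 77 of 88 points lie above 0 with all libraries and Cox4i2 (-7.54) and Ndufa4l2 (-6.33) far below it, and without the named library the medians of all classes are nearer to 0; the 2 vertical axes have different ranges.

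The positive values of the nuclear members were largest in BMSC-CT replicate 3. The per-library median of the nuclear members relative to the control mean was -0.18, 0.01 and 0.19 in BMSC-C, and 0.22, 0.50 and 2.15 in BMSC-CT. Replicate 3 was the highest of the 6 libraries for 76 of 88 nuclear members (86.4%), against 34.6% of all genes. The other 2 treated libraries were above all controls for 40 members (45.5%, against 30.8% of all genes). Without replicate 3 the nuclear median was 0.37, with 66 positive, and 15 members rose while 5 fell, where the shares of all genes were 18.3% and 22.1%. The 15 were Ndufa8, Ndufb9, Ndufc2, Ndufs5, Ndufv3, Cox5a, Cox6a2, Cox6b1, the Cox7a2 pseudogene copy, Cox8a, Atp5d, Atp5e, Atp5g2, Atp5j2 and Atp5l. The 5 were Ndufa4l2, Ndufb3, Ndufaf4, Uqcrc2 and Cox4i2.

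Gene length moved with these values. The nuclear members were short, with a median of 766.5 bases (213 to 7359) against 2125 for all genes tested, and 82 of 88 were below that median. Across the nuclear members the log2 fold change had a Spearman rho of -0.57 with length, and across all genes -0.26, and these members share their libraries. With the length trend removed the rho was -0.005 across all genes but still -0.35 across the nuclear members. It was -0.38 across the members with replicate 3 left out as well, so the removal did not take all dependence on length out of them. When all genes were cut by length into 4 bins of equal size, the shortest bin ran from 42 to 1263 bases. In it, the 66 nuclear members had a median of 1.12 and all genes 0.40. With the length trend removed those medians were 0.68 and 0.09, and with replicate 3 left out as well they were 0.34 and 0.03. In each of these settings the median of the nuclear members of this shortest bin was above that of all its genes, and that difference was not tested. The next bin, 1264 to 2125 bases, held 16 nuclear members. Their median was 0.23 and that of all genes in the bin 0.09. With the length trend removed these were 0.20 and 0.05, and with replicate 3 left out as well -0.02 and 0.03. Another large group of abundant transcripts lay high in the same libraries. The 116 cytosolic ribosomal protein genes, known by names that begin with Rpl or Rps, took 3.761%, 4.449% and 4.798% of reads in BMSC-C and 4.834%, 5.925% and 13.67% in BMSC-CT. The positive values are therefore not shown to be particular to the respiratory chain. With the length trend removed 1 nuclear member rose and 3 fell (12.5% and 10.7% of all genes), and with replicate 3 left out as well 14 rose and 7 fell, where 22.4% and 20.9% of all genes did. What sets replicate 3 apart was not tested.

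**Figure D3:**
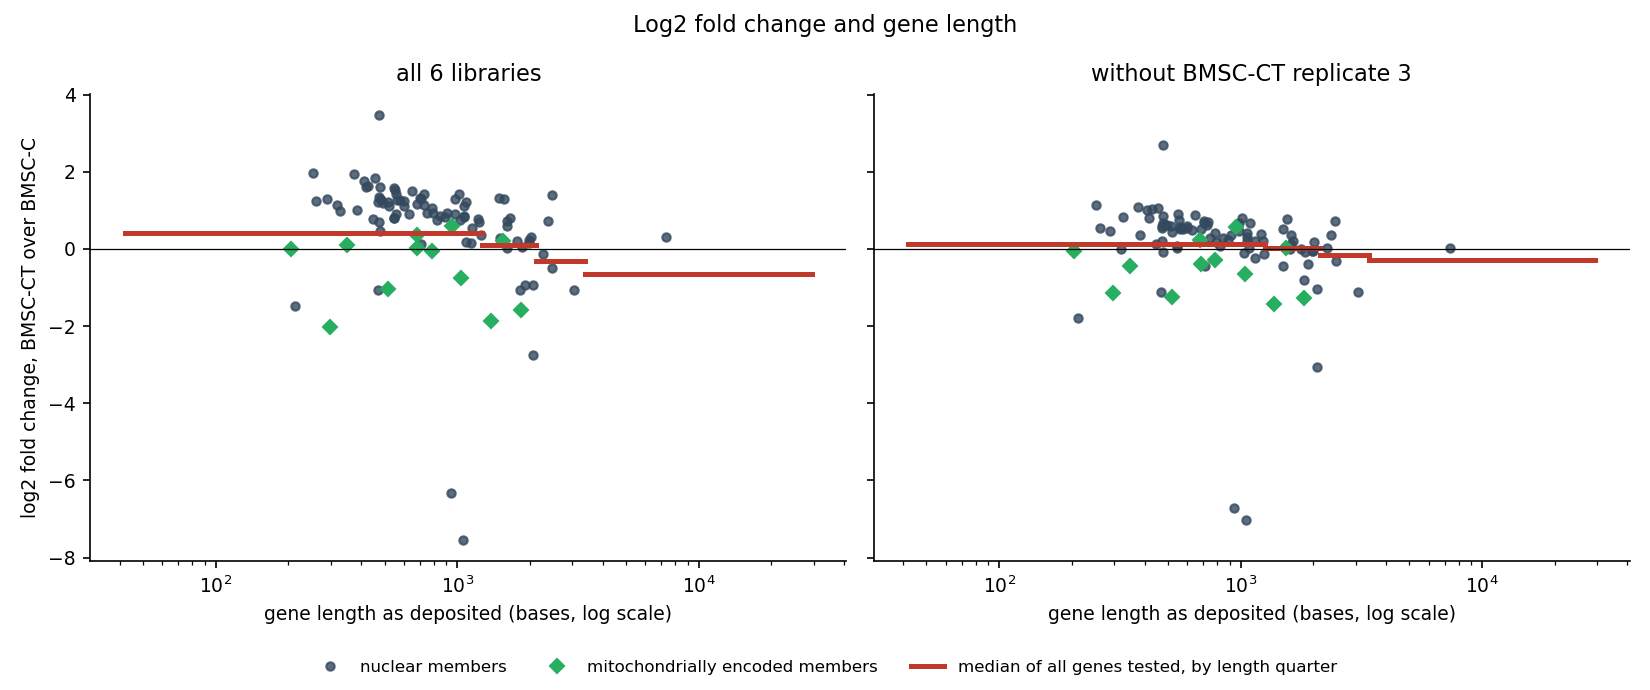
Log2 fold change of BMSC-CT over BMSC-C against gene length in bases on a log axis, with all 6 libraries (left) and without BMSC-CT replicate 3 (right), where dots are nuclear members, diamonds mitochondrially encoded members and red bars the median of all genes tested in each of the 4 length bins. Most nuclear members lie above the bar of the shortest bin, which is at 0.40 on the left and 0.13 on the right.

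Among the mitochondrially encoded members, Mt-nd4 and Mt-nd5, subunits of the complex I membrane arm, fell in BMSC-CT. Of the 12, limma called 0 higher and 2 lower, beside 7.7% and 10.9% of all genes, and the median log2 fold change was -0.03. At an unadjusted p under 0.05, 1 was higher and 4 lower, beside 17% and 21.6% of all genes. edgeR called 0 higher and 1 lower (8.05% and 9.51% of all genes), and DESeq2 1 and 3 (16.5% and 16.4%). Mt-nd4 had 4786, 4623 and 2835 normalized counts in BMSC-C and 1717, 1265 and 579.7 in BMSC-CT. Mt-nd5 had 23701, 21071 and 12279 against 10249, 5607 and 4002. In both genes every treated library was below every control. The log2 fold changes were -1.88 (SE 0.44, limma adjusted p = 0.0326) and -1.58 (SE 0.42, adjusted p = 0.0463). Both calls ended with total-read scaling, that of Mt-nd5 also with edgeR, and both without any 1 control library or BMSC-CT replicate 2, with adjusted p up to 0.137 and 0.176. Without 1 of those libraries, 2.92% to 4.89% of all genes were called lower.

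The other 10 were not called by limma. In the authors' own test Mt-nd1 was higher (adjusted p = 0.0479) and Mt-nd6 lower (adjusted p = 0.0495). Mt-nd4l, which overlaps Mt-nd4, had 5427, 4764 and 2957 normalized counts in BMSC-C and 2629, 1387 and 316 in BMSC-CT (log2 fold change -2.02, SE 0.75, adjusted p = 0.102). Mt-nd6, the one member encoded on the opposite strand, had 4818, 4354 and 2339 against 1950.3, 1208 and 2411 (-1.04, SE 0.38, adjusted p = 0.0975). Mt-nd1 lay the other way, at 19354, 14764 and 14622 against 26357, 21434 and 25907 (0.60, adjusted p = 0.106). Mt-co1, the catalytic subunit of complex IV and the most abundant member, had 313576, 296495 and 278200.0 against 304846, 297779 and 448016 (0.22, adjusted p = 0.657). Mt-co1 took 54.8% ± 3.59 of the mitochondrial member reads in BMSC-C and 59.3% ± 2.38 in BMSC-CT (SD, n = 3), against 42.8% ± 0.254 in BF-C. The remaining ones, Mt-nd2 (-0.75), Mt-nd3 (0.10), Mt-co2 (0.03), Mt-cox3 (-0.06), Mt-atp6 (0.36) and Mt-atp8 (-0.01), were not called. Mt-nd4l and Mt-nd4 overlap, as do Mt-atp8 and Mt-atp6, so the reads of these neighbours cannot be fully told apart, and the kit does not mark strand. Without BMSC-CT replicate 3, 4 members fell, adding Mt-nd4l and Mt-nd6, where 22.1% of all genes were called lower, and the median of the 12 was -0.42.

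Together the mitochondrial members took 4.15%, 3.83% and 3.11% of reads in BMSC-C and 3.34%, 2.79% and 2.73% in BMSC-CT. The nuclear members took 0.743%, 0.888% and 0.951% and then 0.912%, 1.07% and 2.01%. In BF-C the mitochondrial share was 2.52%, 2.50% and 2.63%, and in BF-D 2.91%, 3.03% and 2.73%. The nuclear share was 0.530%, 0.545% and 0.548% in BF-C and 0.567%, 0.848% and 0.537% in BF-D. BF-D replicate 2 had the highest nuclear share of the 6 BF libraries, and these shares were not tested.

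**Figure D4:**
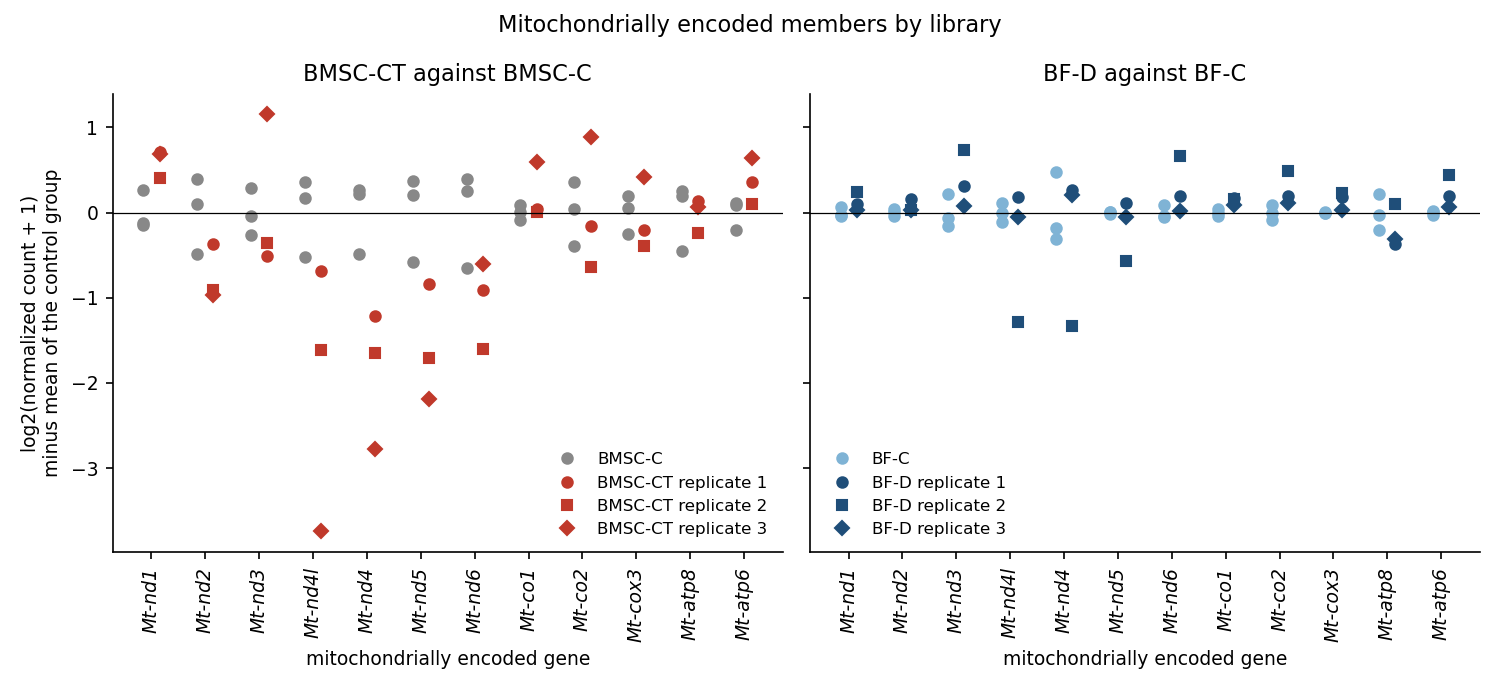
Difference of log2(normalized count + 1) from the mean of the control group for the 12 mitochondrially encoded members, each point a library, in the BMSC table (left) and the BF table (right). Mt-nd4l, Mt-nd4 and Mt-nd5 lie below every control in all 3 BMSC-CT libraries, and in BF-D replicate 2 they lie below every other BF library.

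In BF-D against BF-C no member was called. limma, edgeR and DESeq2 each called 0 of 87 nuclear and 0 of 12 mitochondrial members. Of all genes, limma and edgeR each called 0.00586% in each direction, and DESeq2 0.217% higher and 0.205% lower. The authors' deposited table called 0 of its 88 nuclear and 12 mitochondrial members, beside 0.191% of its 19355 genes higher and 0.17% lower. At these shares, 0 calls do not set the members apart from other genes. Counted without adjustment (p under 0.05), limma gave 3 nuclear members higher and 0 lower, and no mitochondrial one, beside 3.26% and 2.94% of all genes. The 3 were Ndufaf3, an assembly factor of complex I, at 225, 220.0 and 235 normalized counts in BF-C and 253, 451 and 285 in BF-D (log2 fold change 0.49), Cox6b2 at 58.5, 69.4 and 64.9 against 69.2, 132 and 119 (0.68), and the Cox7a2 pseudogene copy (0.69), all at an adjusted p of 0.706. Ndufaf3 did not overlap between the groups, while the lowest Cox6b2 value of BF-D was below the highest of BF-C, and both were highest in replicate 2.

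The paralogs that changed in BMSC-CT were scarce in both BF groups. Cox4i2 had 1.69, 7.48 and 3.93 normalized counts in BF-C and 8.51, 20.4 and 4.19 in BF-D (log2 fold change 1.08, SE 0.65, adjusted p = 0.706). Cox6a2 had 11.01, 14.95 and 13.8 against 11.7, 25.2 and 19.9 (0.43, SE 0.36, adjusted p = 0.716). Ndufa4l2 had 0.847, 0 and 6.88 against 1.06, 1.94 and 0. All 3 overlapped between the groups, and the Ndufa4l2 libraries held at most 7 reads each. Their partners Cox4i1 (0.25), Cox6a1 (0.23) and Ndufa4 (0.15) were highest in BF-D replicate 2, at 5463, 7331 and 2267 normalized counts, while the 5 other BF libraries lay between 3163 and 3391 for Cox4i1. Uqcrc2 had 1012, 969 and 993 against 1047, 1108 and 991, a log2 fold change of 0.08 (adjusted p = 0.769).

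By class the median log2 fold change in BF-D was 0.13 for complex I core subunits, 0.26 for accessory ones, 0.18 for assembly factors, 0.13 for complex II, 0.19 for III, 0.29 for IV and 0.20 for V. Sdha, the longest gene of complex II, had 1955, 1899.8 and 1841 against 1965, 2158 and 1958 (0.09, adjusted p = 0.730). Cox5b, a structural subunit of complex IV, had 670.1, 1139 and 784 against 1160.1, 1695 and 956 (0.55, adjusted p = 0.706), with 1 control above a treated library. Uqcrfs1, the Rieske iron-sulfur subunit of complex III, had 1493, 1457 and 1449 against 1621, 2348 and 1551 (0.30, adjusted p = 0.706), with no overlap.

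The nuclear median was 0.24, with 80 of 87 values positive, and it was 0.0061 without BF-D replicate 2, with 49 positive. That library was the highest of 6 for 82 of 87 nuclear members (94.3%), against 32.1% of all genes, and its per-library median was 0.72, against 0.06 and -0.04 in the other docetaxel libraries. It also had the highest share of cytosolic ribosomal protein transcripts, 2.64% of reads against 1.58% to 1.70% in the 5 other BF libraries. The mitochondrial median was 0.13, and 0.10 without replicate 2, with 11 of 12 values positive. Mt-co1, Mt-co2, Mt-cox3 and Mt-atp6 had every BF-D library above every BF-C library, where 7.78% of all genes did, and none had every one below (9.04%). Mt-co1 had 182419, 178683 and 188112 normalized counts in BF-C and 205796, 205177 and 195436 in BF-D (0.14, adjusted p = 0.706). In replicate 2 Mt-nd4 (855) and Mt-nd5 (12243) were the lowest of the 6 libraries, while its nuclear members were the highest.

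Genes that work around the chain were counted by list. Of 38 other assembly factors, none was called in BMSC-CT (an unadjusted p under 0.05 was reached by 11 higher and 1 lower, and by 17% and 21.6% of all genes), and 11 were higher and 0 lower without replicate 3, where 18.3% and 22.1% of all genes were. The counts of the lists that follow stand beside 7.7% of all genes called higher and 10.9% lower. Among 17 electron carrier genes, Coq10b, a coenzyme Q binding protein, fell from 1093.5, 1021 and 1068 to 665, 581.5 and 478 (log2 fold change -0.89, limma adjusted p = 0.0300), and its paralog Coq10a rose from 224, 249 and 272 to 404, 465 and 763 (1.08, adjusted p = 0.0493). Among 14 biogenesis genes, Ppargc1a, the PGC-1α coactivator of mitochondrial biogenesis, fell from 61.8, 53.3 and 26.0 to 6.33, 1.06 and 0 (-4.19, SE 0.81, adjusted p = 0.0187). Its treated counts are near zero, so this size depends on the pseudocount, and the value of 0 is that of replicate 3. Ucp2, an inner membrane carrier, was the 1 of 8 carriers called, at 1735, 2016 and 2699 against 4471, 5816 and 8313 (1.51, adjusted p = 0.0198). Of 16 TCA cycle genes 1 rose (Pc, pyruvate carboxylase, 0.78, adjusted p = 0.0367) and 1 fell (Dld, a subunit of several dehydrogenase complexes, -1.19, adjusted p = 0.0261), and none of 15 outer membrane and import genes was called. In BF-D against BF-C no gene of these lists was called.

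Some markers of other cell types also changed in this comparison, in which 7.7% of all genes were called higher and 10.9% lower. Of 12 macrophage markers, 4 were higher and 2 lower in BMSC-CT; Csf1r had a log2 fold change of 2.12 (limma adjusted p = 0.0015) and Cd163 of -3.68 (adjusted p = 0.00594). Their summed share was 0.854% to 1.02% of reads in BMSC-C and 1.07% to 1.35% in BMSC-CT. Of 6 osteoclast markers tested, Ctsk (1.65) and Acp5 (1.88) rose. Of 9 mesenchymal markers Col1a1 (2.39) and Eng (1.23) rose and Cxcl12 (-6.98), Pdgfra (-3.14) and Thy1 (-1.31) fell, and of 5 adipocyte markers tested Lpl fell by 3.41, with Adipoq at 0 in BMSC-C. The part of these cells in the respiratory chain results was not tested.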

How the data were processed

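RNA from 12 libraries was measured. Bowtie 0.12.2 and the mouse build mm8 are named in the submitters' processing notes, with no role; the rat build, the counter and its strand setting are not given in the sources used here. Per the labels' protocols, total RNA was made into NEBNext Ultra libraries. The deposited values are a signal, normalized counts: 100% were whole reads (tolerance 0.01) divided by 1 size factor per library. The authors also deposited log2 fold changes, and p-values from their own test, whose tool is not stated.

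Each table was fitted alone with limma 3.58.1 (trend) in R 4.3.3 on log2(normalized count + 1), for genes with a mean of at least 1 (16818 and 17076 genes), with Benjamini-Hochberg adjustment over all of them and a threshold of 0.05. Recovered whole reads were tested with edgeR 4.0.16 and DESeq2 1.42.0 as alternatives. Alternatives were pseudocount 5, no filter, a minimum mean of 10, total-read, TMM and quantile scaling, removal of the length trend (lowess, span 0.3), a replicate block and leaving out each library; combining length removal with leaving out 1 library was added after seeing the data. The limma fit and the removal of the length trend were tested on simulated data, while edgeR and DESeq2 were not. The data simulated for the limma fit held no library that stood apart. Reads per kilobase use the deposited gene length. Promoters came from RefSeq (GRCr8), 58 matched by symbol and 15 by synonym. Named genes were all mitochondrial and Sdh members, the isoform pairs, up to 3 per class or list with the smallest adjusted p, and the 3 highest and lowest nuclear fold changes. The members and lists were chosen with earlier results of these data known. The smallest p that an exact permutation test of 3 against 3 allows is 0.1, so no such test was used. The chondrocyte check (Sox9, Col2a1, Acan) was added after seeing the data.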

Additional observations from a re-analysis of the deposited data

How the results depend on the processing

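In BMSC-CT against BMSC-C, where 1 nuclear member was called higher and 3 lower, the count of higher ones was 3 with quantile scaling (11.5% of all genes), 33 with DESeq2 (16.5%), 5 with the replicate block (7.82%) and 14 with the length trend removed and BMSC-CT replicate 3 left out (22.4%). It was 0 to 15 when 1 library was left out, where 1.5% to 18.3% of all genes were called higher. The count of lower ones was 5 with DESeq2 (16.4% of all genes), 7 with length removal and that library left out (20.9%), and 2 to 5 when 1 library was left out (2.92% to 22.1%). For mitochondrially encoded members, DESeq2 called 1 higher (16.5% of all genes). The 2 called lower became 1 with total-read scaling (11.7% of all genes), 1 with edgeR (9.51%), 3 with DESeq2 (16.4%), 3 with the replicate block (10%) and 3 with length removal (10.7%). They became 4 with length removal and BMSC-CT replicate 3 left out (20.9%), and 0 to 4 when 1 library was left out (2.92% to 22.1%). The nuclear median of 0.92 ranged from 0.37 to 1.25 over the fits that leave out 1 library, and that of BF-D against BF-C, 0.24, from 0.0061 to 0.38. The cause of these differences was not tested. Among 92 single-gene results, 1482 of 1560 alternatives kept direction and side of the threshold, 58 newly passed it, 20 no longer passed and 0 changed sign with a call. Only 6 of the 92 were called in the main fit, so the alternatives that kept their side are mainly of uncalled genes. Of the 6, Cox4i2 and Ndufa4l2 stayed called in every alternative. Cox6a2, Uqcrc2, Mt-nd4 and Mt-nd5 each lost the call in some. Total-read scaling moved the median of all genes by -0.39, quantile scaling by 0.23 and length removal by 0.17. Deviations of same-numbered replicates had correlations of 0.199, -0.021 and 0.183 in the BMSC table and 0.014, 0.020 and -0.003 in the BF table. The labels state no pairs or batches, so the numbers were not read as pairs in the main fit. The nuclear median rose with replicate number in both BMSC groups (-0.18, 0.01 and 0.19 in BMSC-C, 0.22, 0.50 and 2.15 in BMSC-CT). Whether same-numbered BMSC libraries share a batch was not tested. Depth limits the members with few reads, such as Cox8b, which had 6 reads in all.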
